A study of Homo sapiens with 4 samples.

Results

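The receptor tyrosine kinase gene RET, its fusion partner CCDC6, and genes for the co-receptors and ligands of the GDNF system were followed in TPC1, a long-established cell line from a human papillary thyroid carcinoma in which CCDC6 is fused to RET. The genes were chosen by name as RET, CCDC6, GFRA1, GFRA2, GFRA3, GDNF, NRTN and ARTN, and each matched 1 of the 20372 genes of the table. Cells of both groups received the RET inhibitor BLU6864 for 24 h, either together with BGJ398, which inhibits FGFRs (RETi + FGFRi, 2 libraries) or alone (RETi, 2 libraries). All 4 libraries came from 1 cell line, and whether libraries of 1 group were grown as separate cultures is not stated. The p-values therefore rest on a spread between libraries that could be technical only. No vehicle or BGJ398-only library was analysed here, so every comparison is of cells in which RET was already inhibited. The labels give the inhibitor dose as 100 µM, whereas the published methods state it in nanomolar. The libraries held 24695040 to 27457040 counts.

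RET is the signalling receptor for the GDNF family of ligands. A ligand dimer (GDNF, neurturin from NRTN, artemin from ARTN, or persephin from PSPN) first binds a GPI-anchored co-receptor of the GFRα family (GFRA1, GFRA2, GFRA3 or GFRA4), and the complex then brings RET molecules together, so that their kinase domains phosphorylate each other. RET is normally made in neural crest derivatives, in the developing kidney and in the parafollicular C cells of the thyroid. In papillary thyroid carcinoma an inversion of chromosome 10 can place the kinase part of RET behind the start of CCDC6, a widely expressed coiled-coil gene. The fused protein lacks the ligand-binding part of RET and signals without ligand, held together by the coiled coil of CCDC6.

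Counts per gene do not show which exon a read came from, so the reference exons at the joint are given here to show what a RET or a CCDC6 count can contain. In the common form of this fusion, exon 1 of CCDC6 is joined to exon 12 of RET. The joint in these libraries was not read. The last 60 bases of CCDC6 exon 1 (GRCh38, chr10:59906122-59906181, minus strand) and the first 60 bases of RET exon 12 (GRCh38, chr10:43116584-43116643, plus strand) are coding sequence of the GENCODE reference transcripts, with the codons that meet at the joint in capitals.
CCDC6 exon 1, end: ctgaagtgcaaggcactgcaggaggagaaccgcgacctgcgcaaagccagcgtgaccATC
RET exon 12, start: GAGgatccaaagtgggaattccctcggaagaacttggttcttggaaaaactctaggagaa
CCDC6 contributes 303 coding bases, or 101 whole codons, and RET exon 12 follows 712 whole codons, so the reading frame is kept. The fused part makes up 435 of the 5727 bases of the CCDC6 transcript (7.60%) and 3291 of the 5617 bases of the RET transcript (58.6%).

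**Figure D1:**
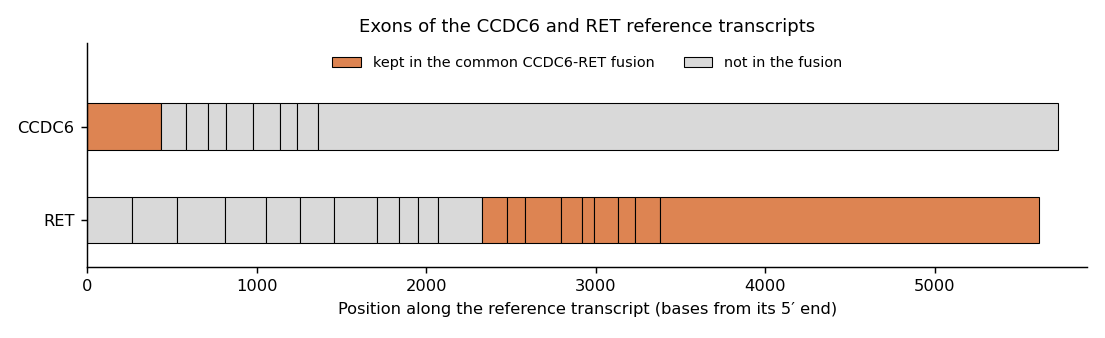
Exons of the reference transcripts of CCDC6 and RET drawn to scale, with position in bases from the 5′ end on the x axis and the exons kept in the common CCDC6-RET fusion in orange. The fused part is 435 of 5727 bases of CCDC6 and 3291 of 5617 bases of RET.

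The fused transcript starts at the CCDC6 promoter, whereas an unfused RET transcript starts at its own. The 250 bases before each start are shown for this reason, with matches to the GC box (GGGCGG on either strand, overlapping matches counted) in capitals. They come from RefSeq (GRCh38.p14), at chr10:59906557-59906806 on the minus strand for CCDC6 and at chr10:43076819-43077068 on the plus strand for RET.
CCDC6 promoter: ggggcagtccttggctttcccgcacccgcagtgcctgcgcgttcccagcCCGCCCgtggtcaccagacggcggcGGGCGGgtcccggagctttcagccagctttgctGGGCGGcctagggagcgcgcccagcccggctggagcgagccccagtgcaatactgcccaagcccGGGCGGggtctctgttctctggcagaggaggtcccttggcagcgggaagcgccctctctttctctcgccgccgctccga
RET promoter: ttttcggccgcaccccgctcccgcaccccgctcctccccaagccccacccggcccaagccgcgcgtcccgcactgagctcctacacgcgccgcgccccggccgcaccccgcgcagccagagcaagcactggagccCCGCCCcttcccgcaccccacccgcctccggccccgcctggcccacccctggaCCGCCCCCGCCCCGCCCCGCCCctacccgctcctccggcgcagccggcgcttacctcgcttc
The CCDC6 window held 4 GC boxes and the RET window 5, and 42.6% of 35116 RefSeq promoter windows of the same length held at least 1. Both windows were rich in G and C (71.6% for CCDC6 and 79.6% for RET, against a median of 58.0%). Neither held the TATA box TATAAA on either strand, which 10.7% of the windows hold. Neither held CCAAT on either strand (32.0% of the windows). Neither held the CRE core TGACG on either strand (21.2% of the windows). These matches are descriptions of the reference sequence and were not related to binding.

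RET mRNA did not differ detectably between the groups. RET (ENSG00000165731, chromosome 10, 43572475 to 43625799, hg19) had 1325 and 1360 reads in the RETi + FGFRi libraries and 1454 and 1522 reads in the RETi libraries. As normalised counts, the raw count divided by 1 factor per library, it stood at 1386 ± 24.1 after RETi + FGFRi and 1443 ± 23.8 after RETi (SD, n = 2 each). Both RETi + FGFRi libraries lay just below both RETi libraries. The fold change was 0.96 with a 95% interval of 0.85 to 1.08 (log2 fold change -0.06, SE 0.075, adjusted p = 0.59, edgeR).

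CCDC6, whose protein is phosphorylated by ATM after DNA damage, had few reads and did not differ detectably either. CCDC6 (ENSG00000108091, chromosome 10, 61548521 to 61666414) had 57 and 57 reads in the RETi + FGFRi libraries, against 58 and 61 reads in the RETi libraries. It stood at 58.9 ± 2.11 normalised counts after RETi + FGFRi and 57.7 ± 1.14 after RETi (SD, n = 2 each), and the groups overlapped. The fold change was 1.02, with an interval of 0.74 to 1.40 that is wider than that of RET (log2 fold change 0.03, SE 0.21, adjusted p = 0.94, edgeR).

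The co-receptor GFRA1, which presents GDNF to RET, was the closest of these genes to the threshold. GFRA1 (ENSG00000151892, chromosome 10, 117816444 to 118032979) had 778 and 805 reads in the RETi + FGFRi libraries and 986 and 955 in the RETi libraries, or 817 ± 9.54 and 941 ± 36.2 normalised counts (SD, n = 2 each). The groups did not overlap. The fold change was 0.87 with a 95% interval of 0.77 to 0.98 (log2 fold change -0.21, SE 0.081, unadjusted p = 0.027 and adjusted p = 0.086 over all 12794 genes tested, edgeR), so the difference did not pass. GFRA2, the neurturin co-receptor (ENSG00000168546, chromosome 8, 21547915 to 21669869), and GFRA3, the artemin co-receptor (ENSG00000146013, chromosome 5, 137588068 to 137610360), had 0 reads in all 4 libraries. A count of 0 allows up to 3 reads, which is 0.109 to 0.121 CPM (reads per 1e6 reads of the library) in these libraries. This floor covers counting error only.

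Among the ligands, GDNF and ARTN were detected at low counts and NRTN was at the edge of detection. GDNF (ENSG00000168621, chromosome 5, 37812779 to 37839788) had 34 and 32 reads in the RETi + FGFRi libraries, against 44 and 44 in the RETi libraries. Its groups did not overlap, at 34.1 ± 2.68 and 42.7 ± 0.68 normalised counts (SD, n = 2 each), yet its log2 fold change was -0.33 (edgeR, SE 0.25, adjusted p = 0.37) with a 95% interval of -0.88 to 0.22. Artemin, the ligand preferred by GFRα3, is encoded by ARTN (ENSG00000117407, chromosome 1, 44398992 to 44402913), which had 20 and 26 reads in the RETi + FGFRi libraries and 15 and 22 in the RETi libraries. In normalised counts the lower RETi + FGFRi library (21.2) and the higher RETi library (21.1) nearly met, and its log2 fold change was 0.40 (edgeR, SE 0.35, adjusted p = 0.43) with a 95% interval of -0.36 to 1.16. NRTN (ENSG00000171119, chromosome 19, 5823813 to 5828335) had 1 and 1 reads after RETi + FGFRi and 0 and 1 after RETi, too few for a fold change.

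**Figure D2:**
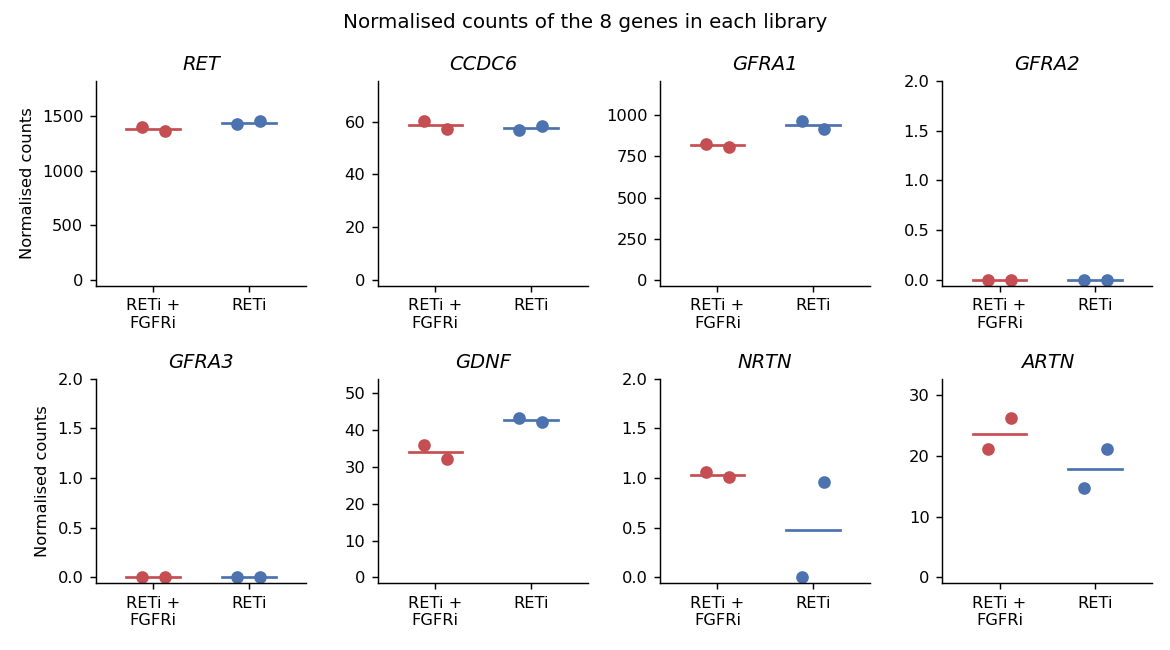
Normalised counts of each of the 8 genes in the RETi + FGFRi and RETi libraries (points, 2 per group; lines, group means), each panel on its own linear axis. RET (slightly), GFRA1 and GDNF are lower and ARTN is higher in both RETi + FGFRi libraries, and none of these differences passed. The groups did not overlap in 65.1% of all tested genes either. CCDC6 sits at nearly the same level in both groups, and GFRA2 and GFRA3 are at 0.

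In all, 5 of the 8 genes passed the filter on low counts, 2 had no read and NRTN fell below it. None of the 5 was called in either direction at an adjusted p under 0.05 by edgeR, where 24.1% of all tested genes were called, 12.8% of all tested genes in the higher direction and 11.3% in the lower. These shares rest on 1643 genes called higher and 1446 called lower, which became 850 and 653 without RETi replicate 1 and 691 and 553 without RETi replicate 2. Unadjusted, only GFRA1 of the 5 had a p under 0.05, and DESeq2 called none of those to which it gave an adjusted p. In 4 of the 5 genes the groups did not overlap, as in 65.1% of all tested genes, a share that was not tested against that of the 5. The median log2 fold change of the 5 was -0.06, against 0.00 over all tested genes.

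Per length of the reference transcript, RET was the highest of the 8 genes, at 252 normalised counts per kb (mean of 4 libraries), above 54.0% of tested genes. GFRA1 followed at 96.0 per kb, above 32.1% of tested genes. ARTN (14.4 per kb, 10.2 to 18.2 over the libraries), CCDC6 (10.2, 9.93 to 10.5) and GDNF (9.20, 7.72 to 10.3) came next, and each overlapped its neighbour in this order. NRTN stood at 0.49 per kb. On whole transcript length, RET and GFRA1 were thus separated from the rest and from each other in every library. The order among ARTN, CCDC6 and GDNF was not resolved. The place of CCDC6 below GFRA1 assumes that its reads spread over the whole transcript, which counts per gene cannot show. The value of RET per kb, and its place among all tested genes, rest on the same assumption.

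Per kb of whole reference transcript, the level of CCDC6 was low beside RET and beside other fusion partners. In each library RET had 23.2 to 25.1 reads for every CCDC6 read. The log2 ratio of the 2 counts was 4.56 ± 0.027 after RETi + FGFRi and 4.64 ± 0.0048 after RETi (SD, n = 2 each). The difference of -0.09 was smaller than the edgeR SE of the CCDC6 log2 fold change (0.21). With 57 to 61 CCDC6 reads per library, counting error was not separated from these SDs. An exact two-sided permutation test over the 4 libraries gave p = 0.33. This is the smallest that 2 against 2 can give, so the test cannot decide whether the ratio differed. Were every RET read to lie on exons 12 to 20, RET would have 421 normalised counts per kb there after RETi + FGFRi and 438 after RETi. At that density the 435 bases of CCDC6 exon 1 alone would hold 183 and 191 normalised counts, more than the 58.9 and 57.7 assigned to the whole CCDC6 gene. This calculation assumes even coverage along a joined transcript, and neither that nor the handling of reads that cross the joint could be tested from counts per gene. How many CCDC6 reads come from a fused and how many from an unfused transcript cannot be told apart here.

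Genes known as partners in other RET fusions were set beside CCDC6. Of 20 such genes, all were tested and 19 had a reference transcript length. Per kb of whole transcript, all 19 were above CCDC6. They ranged from HOOK3, which links cargo to microtubules (52.5 per kb), to the autophagy receptor gene SQSTM1 (9021 per kb). The median was 280 per kb, close to the 252 of RET over its whole transcript. Were every RET read to lie on exons 12 to 20, RET would be above that median. It would have 421 per kb there after RETi + FGFRi and 438 after RETi. Were every CCDC6 read to lie on exon 1, CCDC6 would have 135 per kb there after RETi + FGFRi and 133 after RETi. Those values are above HOOK3 and below the median, so the rank of CCDC6 depends on where its reads lie. Of the 20, 2 rose and 2 fell at an adjusted p under 0.05 and 16 did not pass (median log2 fold change -0.01), beside 24.1% of all tested genes called. AFAP1L2, which encodes the adaptor XB130, a substrate of fused RET in thyroid cells, fell to 2354 ± 69.0 normalised counts after RETi + FGFRi, against 3271 ± 243 after RETi (SD, n = 2 each; edgeR, log2 fold change -0.48, SE 0.078, adjusted p = 0.0023). NCOA4, the ferritin autophagy receptor and the next most frequent partner of RET in papillary carcinoma, had a log2 fold change of 0.27 (adjusted p = 0.042), the scaffold gene AKAP13 of 0.30 (adjusted p = 0.022) and TRIM27 of -0.24 (adjusted p = 0.040). Only AFAP1L2 kept its call when each library was left out in turn. Without RETi replicate 1 and RETi replicate 2 the adjusted p was 0.16 and 0.32 for NCOA4, 0.20 and 0.053 for AKAP13, and 0.25 and 0.13 for TRIM27, which also lost its call without RETi + FGFRi replicate 2 (0.10).

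**Figure D3:**
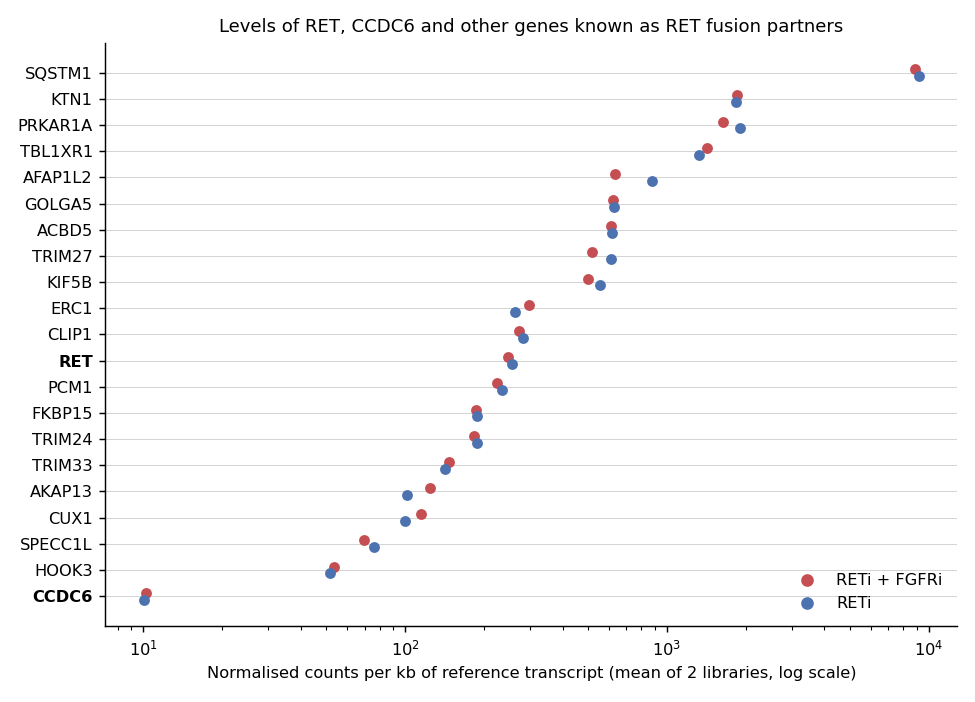
Normalised counts per kb of reference transcript for RET, CCDC6 and 19 other genes known as RET fusion partners (points, means of 2 libraries for RETi + FGFRi and RETi; logarithmic x axis). On whole transcript length, CCDC6 is lowest at about 10.2 per kb, and RET lies near the middle at 252.

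In a list of 8 further ligands and receptors of the GDNF system 4 were tested and none was called, beside 24.1% of all tested genes (median log2 fold change -0.03). PSPN, the persephin gene, had 74 and 96 reads in the RETi + FGFRi libraries and 75 and 93 in the RETi libraries, whereas its co-receptor gene GFRA4 had no read. GDF15, the ligand that signals through GFRAL and RET in the hindbrain, was abundant at 4049 ± 45.6 normalised counts after RETi + FGFRi and 3753 ± 51.7 after RETi (SD, n = 2 each; edgeR, log2 fold change 0.11, adjusted p = 0.30), and GFRAL had no read. NCAM1 and SDC3, which encode cell-surface proteins that can bind GDNF without RET, had log2 fold changes of -0.21 and -0.17 (adjusted p = 0.56 and 0.13, edgeR). GAS1, related to the GFRα family, and SORL1, a sorting receptor for GDNF and GFRα1, had at most 8 reads in a library.

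Adaptors and signalling partners that act directly downstream of RET were set beside it. Of 24 such genes 20 were tested, 2 rose, 4 fell and 14 did not pass, beside 12.8% of all tested genes called higher and 11.3% called lower. No difference between this share and that of all genes was tested (median log2 fold change -0.04, against 0.00 over all tested genes). SRC, a kinase that RET activates, had 1738 and 1775 reads in the RETi + FGFRi libraries and 2700 and 2844 in the RETi libraries (log2 fold change -0.57, SE 0.073, adjusted p = 0.00071, edgeR). RAP1GAP, whose product switches off the GTPase RAP1 and binds RET, rose to 213 ± 6.15 normalised counts after RETi + FGFRi, against 98.8 ± 13.5 after RETi (SD, n = 2 each; edgeR, log2 fold change 1.10, adjusted p = 0.0010). The groups were well apart for both genes, and both calls held in all 9 alternative analyses. GRB2, which couples phosphorylated receptors to SOS1, fell with a log2 fold change of -0.32 (adjusted p = 0.0097), and the docking protein gene DOK1 with one of -0.42 (adjusted p = 0.012), while IRS2 rose by 0.37 (adjusted p = 0.011, all edgeR). SHC3 was called lower (adjusted p = 0.042) on 4 and 3 reads after RETi + FGFRi and 11 and 15 after RETi. The call of GRB2 was lost without RETi replicate 1 (adjusted p = 0.069) or RETi replicate 2 (0.072), that of DOK1 without RETi replicate 2 (0.10), that of IRS2 without RETi replicate 1 (0.099), and that of SHC3 without any 1 of the 4 libraries (0.076 to 0.30) or without the filter on low counts (0.067), and DESeq2 gave SHC3 no adjusted p (unadjusted p = 0.061). DOK1 overlaps LOXL3 in the deposited coordinates. SHC1 and FRS2, which bind the main docking tyrosine of full-length RET, had log2 fold changes of 0.00 and 0.06 and did not pass. The published study gives it as unknown whether FRS2 also binds fused RET. DOK2 and DOK6 had no read.

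Genes that act on RET protein turnover or on its phosphorylation were described in the same way. Of 9 phosphatases, ubiquitin ligases and endocytic adaptors 8 were tested, 1 rose, 3 fell and 4 did not pass, beside 24.1% of all tested genes called in either direction (median log2 fold change -0.13). PTPRJ, a receptor phosphatase that dephosphorylates RET, had 1056 and 1159 reads in the RETi + FGFRi libraries, against 2041 and 2151 in the RETi libraries. It fell by 0.83 on the log2 scale (edgeR, SE 0.075, adjusted p = 7.3e-05) and kept its call in all 9 alternative analyses. The ubiquitin ligase gene NEDD4 rose by 0.28 on the log2 scale (adjusted p = 0.029), and the phosphatase gene PTPRA and the endocytic adaptor gene SH3KBP1 had log2 fold changes of -0.24 (adjusted p = 0.031) and -0.23 (adjusted p = 0.044, all edgeR). Without RETi replicate 1 and RETi replicate 2 the adjusted p was 0.18 and 0.15 for PTPRA and 0.27 and 0.15 for SH3KBP1, which also lost its call without RETi + FGFRi replicate 1 (0.13), and NEDD4 lost its call without RETi replicate 2 (0.26). PTPRA overlaps VPS16. CBL, the ligase that marks active RET for degradation, did not pass (log2 fold change 0.10).

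Of 6 genes for protein partners of CCDC6, 5 were tested, 1 rose and 4 did not pass, beside 12.8% of all tested genes called higher (median log2 fold change -0.10). ATM, the kinase that phosphorylates CCDC6, had 2610 and 2397 reads in the RETi + FGFRi libraries and 1798 and 1946 in the RETi libraries (log2 fold change 0.51, SE 0.087, adjusted p = 0.0027, edgeR). ATM overlaps NPAT and C11orf65 in the deposited coordinates, and strand use in counting is not given, so some of its reads are uncertain. CREB1, a transcription factor that CCDC6 represses, had a log2 fold change of 0.02 (adjusted p = 0.84).

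**Figure D4:**
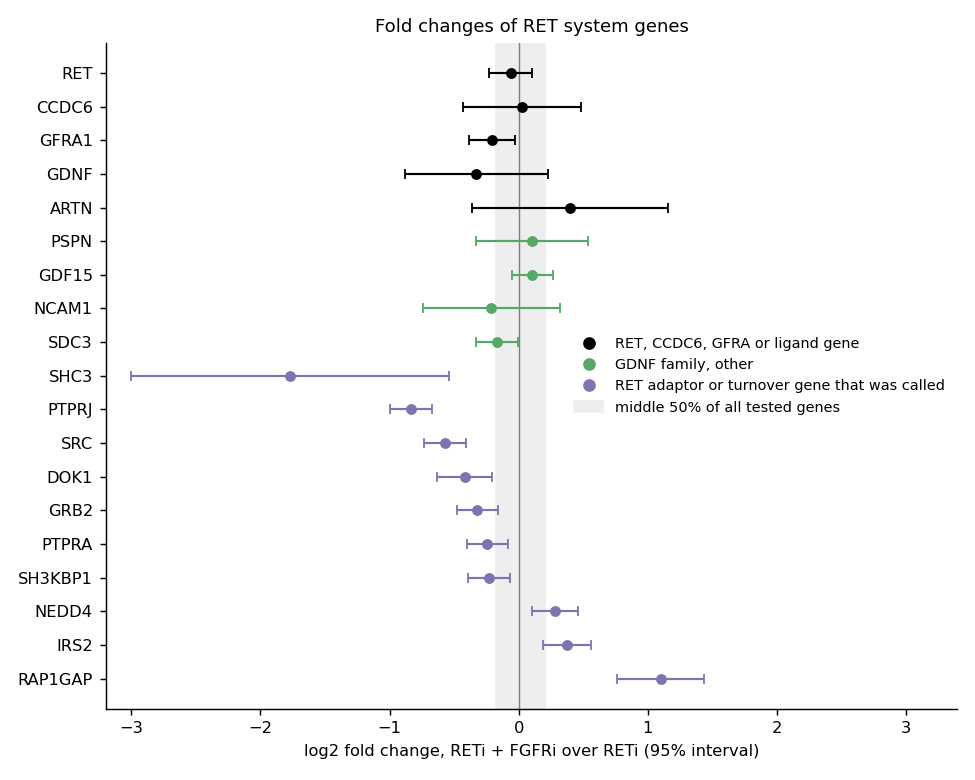
Log2 fold changes of RETi + FGFRi over RETi (x axis) with 95% intervals (bars) for the 5 tested genes of the RET, CCDC6 and GDNF set (black), 4 other GDNF system genes (green) and the 10 called RET adaptor or turnover genes (purple). Phosphatase genes are counted among the turnover genes. The grey band holds the middle 50% of all tested genes (-0.17 to 0.21), and the 5 intervals in black either cross 0 or, for GFRA1, end just below it.

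The position of RET and CCDC6 on chromosome 10 was set beside their levels. Of the 3 genes annotated on each side of RET, LINC00999 and RASGEF1A had at most 7 reads in a library, FXYD4 had none, and CSGALNACT2 did not pass. ZNF33B rose with a log2 fold change of 0.43 (adjusted p = 0.0050) and BMS1 had one of -0.25 (adjusted p = 0.044, both edgeR). The call of ZNF33B was lost without RETi replicate 2 (0.067), and that of BMS1 without either RETi library (0.18 each) or without RETi + FGFRi replicate 2 (0.12). Around CCDC6, PHYHIPL, FAM13C, SLC16A9 and C10orf40 had no read in any library, and ANK3 and CDK1 did not pass. Between RET and CCDC6 (chromosome 10, 43625800 to 61548520) 38 of 92 genes were tested, of which 4 rose and 2 fell (15.8%, against 25.6% on the rest of the chromosome and 24.1% of all tested genes).

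Over 4 libraries many genes share a pattern by their number alone. Among 9244 tested genes with a mean of at least 10 CPM (reads per 1e6 reads of the library), the log2 levels of CHPF2, ERMP1 and GIT1 were most like those of RET (Pearson r of at least 0.9997 over the 4 libraries), and 325 genes (3.52%) had an r above 0.95. For CCDC6 these were INPPL1, RNF103 and KANSL1 (r of at least 0.9994), and 124 of 9245 genes (1.34%) were above 0.95. CCDC6 had only 57 to 61 reads per library, and counting error was not separated from its pattern. None of the 6 named genes was called, beside 24.1% of all tested genes. They were picked for likeness to RET or CCDC6, which were not called either, so no conclusion is drawn from this.

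The thyroid label was set beside marker genes. PAX8, a thyroid transcription factor gene, had 18168 to 21660 reads and TG, the thyroglobulin gene, 98 to 149, whereas NKX2-1 had no read and TSHR at most 1 in a library. Among markers of C cells, in which RET is normally expressed, CALCA, CALCB and CEACAM5 had no read in any library. CHGA had 3 to 6 reads, CHGB at most 2 and SYP, a neuroendocrine marker and the only tested gene of the list, 16 to 35, and SYP did not pass. Of 6 epithelial markers 4 were tested, of which 3 fell, beside 11.3% of all tested genes. KRT7, KRT8 and KRT18 had log2 fold changes of -0.68, -0.28 and -0.72 (edgeR). KRT19 did not pass, with 42 and 45 reads after RETi + FGFRi and 37 and 40 after RETi (log2 fold change 0.26). The summed level of the list was 2251 and 2557 after RETi + FGFRi and 3284 and 3299 after RETi. EPCAM and CDH1 had at most 3 reads in a library. KRT7 overlaps KRT86. The call of KRT8, which overlaps KRT18, was lost without RETi replicate 1 (adjusted p = 0.095), without RETi replicate 2 (0.16) and without RETi + FGFRi replicate 1 (0.073). The part of this shift in the results above was not tested. Fewer cells with a transcript and less transcript per cell cannot be told apart in bulk RNA.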

How the data were processed

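RNA from TPC1 cells was sequenced in 2 libraries per group, and groups were taken from the treatment labels. Per the submitters' processing notes, reads were handled with STAR 2.3 and DESeq2 on hg19. The counting tool and its use of strand are not given in the sources used here, and the labels and the methods of the study differ on read layout. The authors deposited raw counts per gene, normalised counts (a signal, the raw count divided by 1 DESeq2 size factor per library) and, from their own comparison, log2 fold changes, their errors, test statistics (a score) and p-values, adjusted and not, which were deposited but not used here.

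The test was that of edgeR 4.0.16, run in R 4.3.3 on raw counts of all genes (TMM, filterByExpr with a minimum of 10 reads, quasi-likelihood F-test, no covariate, all 4 libraries in 1 fit), with Benjamini-Hochberg adjustment over the 12794 genes tested and calls at an adjusted p under 0.05. The fit had 2 residual and 8.96 prior degrees of freedom. Fold changes have RETi + FGFRi on top, and SEs and 95% intervals come from the F statistic. The procedure was checked on simulated counts. Depth was 24695040 to 27457040 counts per library. Chi-square per degree of freedom of the counts was 14.0 within RETi + FGFRi and 7.91 within RETi, above sampling noise, so no libraries were merged.

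Coordinates of genes were taken from the deposited table. Transcript lengths and exons were those of Ensembl canonical transcripts (GENCODE 44, GRCh38), matched by gene ID for 98.7% of tested genes, and promoters were from RefSeq (GRCh38.p14, 35116 windows). The 8 genes and the lists were chosen with earlier results of these data known. All 8 were named, with up to 6 called genes of each list by smallest p, list genes with no read, the 3 genes annotated on each side of RET and CCDC6, and the 3 genes most correlated with each. Other genes were named after their values were seen. Some marker genes are not reported here. The alternatives were RLE factors, library totals, no filter, DESeq2 1.42.0, a replicate block and leaving out each library.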

Additional observations from a re-analysis of the deposited data

How the results depend on the processing

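The log2 fold changes of the 5 tested genes were recomputed with RLE factors, library totals, no filter on low counts, DESeq2, a replicate block and without each library in turn. None was called in these 45 analyses (ARTN had no adjusted p in DESeq2), and 43 kept their direction. Only CCDC6 changed sign, at -0.00 with library totals (slightly negative) and -0.01 without RETi + FGFRi replicate 1. The ranges were -0.09 to -0.04 for RET, -0.01 to 0.07 for CCDC6, -0.25 to -0.16 for GFRA1 (adjusted p from 0.068 to 0.40), -0.40 to -0.24 for GDNF and 0.17 to 0.68 for ARTN. Across all genes, leaving out 1 library moved the number called higher to between 691 and 1942 and lower to between 553 and 1503, against 1643 and 1446 (without RETi replicate 1, 850 and 653; without RETi replicate 2, 691 and 553). With 1 library left in a group, its spread is taken from the other group. The replicate block gave 2041 higher and 1738 lower. Same-numbered libraries deviated together with a correlation of 0.03 over all tested genes. Whether they shared a culture or batch was not settled by this value, which includes counting noise. The log2 RET to CCDC6 ratio differed by -0.11 to -0.07 without each library. Of 20 called list or neighbouring genes, 7 (SRC, RAP1GAP, PTPRJ, AFAP1L2, ATM, KRT7 and KRT18) were called in all alternatives and all 20 kept their direction. DESeq2 did not call PTPRA (adjusted p = 0.065), SH3KBP1 (0.091), TRIM27 (0.089), KRT8 (0.0502) or BMS1 (0.12) and gave SHC3 no adjusted p, no filter gave 0.054 for SH3KBP1 and 0.051 for BMS1, and RLE factors gave 0.056 for SH3KBP1. At 15 to 61 reads, GDNF, ARTN and CCDC6 could be compared only with wide intervals.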
